A study of Mus musculus with 30 samples.

Results

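The genes described here are the 534 expressed protein-coding genes of mouse chromosome 8, out of 55421 genes in the count tables and 1038 protein-coding genes that the annotation places on this chromosome. They were chosen by position and by a mean level over 5 TPM (transcript counts scaled by gene length and depth) in the 2 XX Rnf12 libraries, and 11 genes above that level were left out by name or as subunits of ribosomes and the respiratory chain. The lowest member by this limit was Stox2 at 5.29 TPM, and the highest gene outside it was Zdhhc2 at 4.92 TPM. The rule set these genes in 5 libraries, Deletion F.2, Deletion I-TEL.1, I-TEL.2, J.1 and J.2, against the other 15 libraries of one library batch. It did so because the chromosome 8 level and 129 share of the 5 had stood apart. The comparison of the 5 with the 15 libraries is therefore a description, with no test.

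All 20 libraries were bulk RNA-seq of female mouse embryonic stem cells from a 129/Sv x Cast/Ei cross, so that reads over single-nucleotide differences could be given to the 129 or the Cast allele. Every one of these lines carried a heterozygous loss of Rnf12, an X-linked ubiquitin ligase gene that promotes X inactivation, and a heterozygous deletion of a named X-linked region on the 129 chromosome with a neomycin cassette left in its place. Deletion F, I-TEL and J each had 2 libraries, from separate clones, and the other 14 libraries carried deletion A, B, AB, C, C-G, D, H, I or K. I-TEL and J came from one Rnf12 +/- founder line and F and the other 14 from another, so founder line and chromosome 8 dose cannot be told apart in I-TEL and J, whereas F.1 and F.2 share both founder and deletion. The 20 libraries held 8816184 to 10680026 counts each, of which 12.18% to 12.65% could be given to an allele. No DNA was measured here, and a copy number is read only from RNA.

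A cell that carries an additional copy of a chromosome segment has more template for each gene on it, and the RNA of most genes then goes up in proportion. For genes whose RNA is set by feedback, by a limiting signal or by a second locus, the level can stay closer to the diploid one, and such genes are called buffered. Gain of chromosome 8 is a well-known culture change of mouse embryonic stem cells. With 3 copies in place of 2, a gene read equally from both alleles would reach 1.5 times its usual level by following its dose. An allele present on 2 of the 3 copies would then give 66.7% of the allelic counts and the other 33.3%. A gene read mostly from 1 allele would go up more with an extra copy of that allele, and less with one of the other.

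Over all 534 members, 129 counts made up 50.1% to 51.2% of the allelic counts in the 15 other libraries. The share was 65.1% and 65.6% in I-TEL.1 and I-TEL.2 and 65.8% and 65.4% in J.1 and J.2, whereas it was 37.7% in F.2 (95% exact binomial interval 37.3% to 38.0%, which covers counting error only). The 129 allele was thus over-represented in I-TEL and J and the Cast allele in F.2, and none of the 5 libraries overlapped with the 15. The median level ratio over members, each library against the mean of the other libraries, was 1.33 in F.2, 1.41 and 1.36 in I-TEL.1 and I-TEL.2, and 1.38 and 1.40 in J.1 and J.2, against 0.963 to 1.03 in the 15 others. In the same 5 libraries the median ratio of 9036 autosomal genes elsewhere, taken by the same filter, was 0.989 to 1.00.

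These chromosome-wide values did not hold along the whole chromosome. When the members were placed in chromosome order, the allelic counts moved at a border, and the border was not the same in F.2 as in I-TEL and J. A border was placed for each library where a step in the odds of 129 counts gave the highest binomial likelihood over the 373 members with a mean of at least 30 allelic counts, without use of the level. In I-TEL and J together it lay between Plpbp (mm10, chr8:27042555-27056132) and Rab11fip1 (chr8:27138773-27174646). I-TEL.1, I-TEL.2 and J.2 each gave this border on their own, and J.1 gave one between Fnta and Erlin2, just before Plpbp. In F.2 the border lay between Palld (chr8:61511433-61902690) and Cpe (chr8:64592542-64693054). Beyond the border the odds of 129 counts were 1.93 and 1.97 times those of the 15 libraries in I-TEL.1 and I-TEL.2, 1.99 and 1.95 times in J.1 and J.2, and 0.500 times in F.2.

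**Figure D1:**
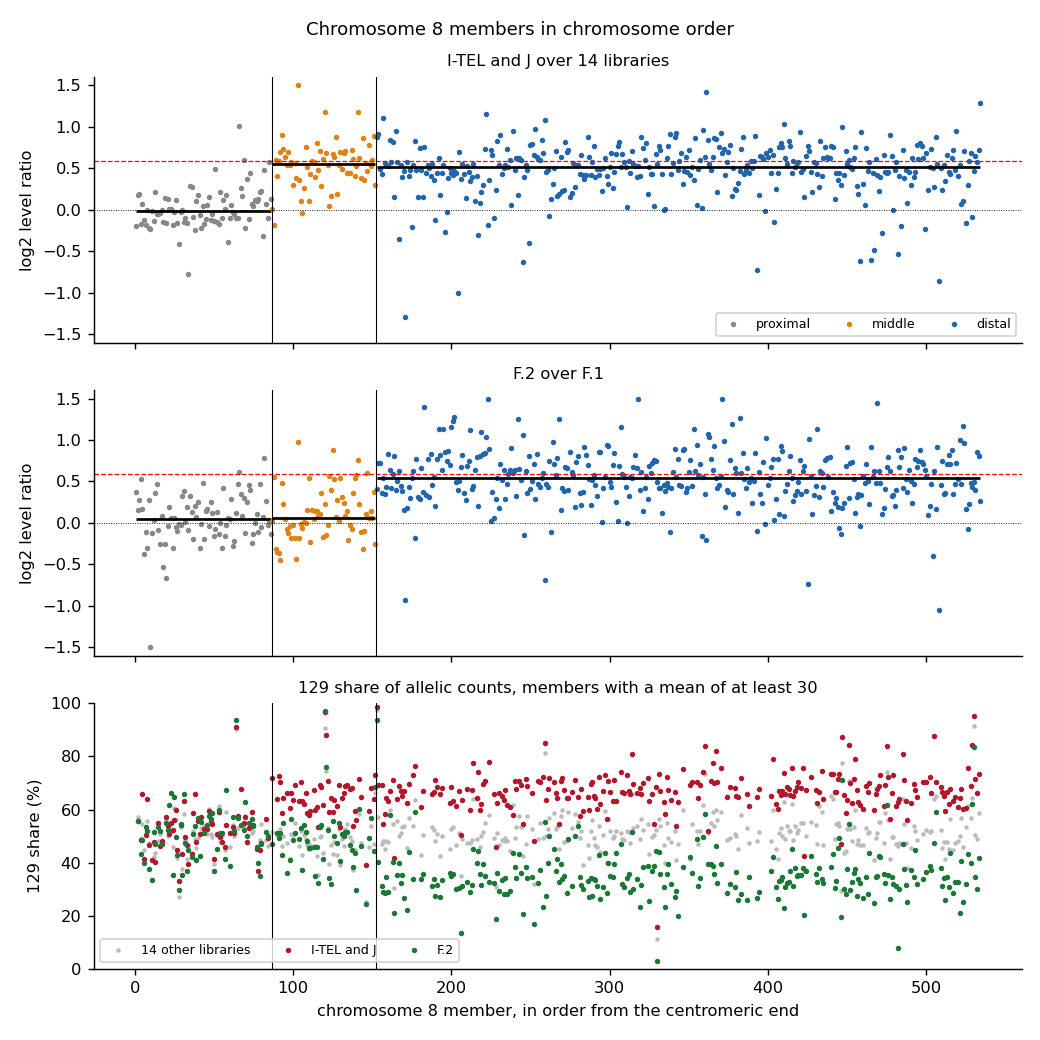
Each point is 1 of the 534 members, placed in chromosome order on the x axis. The upper panels show the log2 level ratio of I-TEL and J over 14 libraries and of F.2 over F.1 (values beyond 1.5 either way are drawn at 1.5, black bars are segment medians, the dashed red line is a ratio of 1.5), and the lower panel shows the 129 share in percent for the 373 members with enough allelic counts. Vertical lines mark the 2 borders, and the step appears at the first in I-TEL and J and at the second in F.2.

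The borders were placed on these same allelic counts, so the shares of the members beside them are a description and no support for a border. Erlin2, just before Plpbp, had a 129 share of 56.3% in I-TEL and J and 48.7% in the 14 libraries. Plpbp, a pyridoxal phosphate binding protein gene, had a 129 share of 49.4% in I-TEL and J and 46.3% in the 14 libraries, whereas Rab11fip1, an effector of recycling endosomes, had 71.99% against 51.4%. The level of Rab11fip1 did not show the step, with a ratio of 1.003 in I-TEL and J. Eif4ebp1, which holds back cap-dependent translation, is the next member with enough counts, and its share was 63.9% against 50.3%. Palld, the last gene before the F.2 border, encodes an actin cross-linker and had a 129 share of 68.6% in F.2, inside the 51.7% to 84.5% of the 15 libraries. Cpe, a peptide-processing enzyme gene, was read almost only from 129 in all libraries (97.6% in the 14), so it says little about the border. Msmo1, the next member and a sterol C4-methyl oxidase of cholesterol synthesis, had 40.3% in F.2 against 46.3% to 62.1% in the 15 libraries.

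The borders divided the members into 3 segments. The proximal segment, from Insr to Brf2 (chr8:3122061-27128680), held 86 members. The middle segment, from Rab11fip1 to Palld (chr8:27138773-61902690), held 66 members and was shifted in I-TEL and J only. The distal segment, from Cpe to the last member (chr8:64592542-129234406), held 382 members and was shifted in all 5 libraries. The label of an extra chromosome 8 copy thus did not hold in level for the 86 proximal members in any of the 5 libraries, nor for the 66 middle members in F.2.

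The median levels of the segments differed across the same borders. In the proximal segment the median ratio was 1.01 in F.2 and 0.992 to 1.02 in I-TEL and J, within the 0.965 to 1.07 of the 15 libraries. The proximal 129 share was 49.9% in F.2, inside the 48.1% to 50.2% of the 15 libraries, and 50.4% to 52.6% in I-TEL and J, above all 15 by a few points at most. In the middle segment it was 1.02 in F.2, again within the others (0.931 to 1.08), and 1.444, 1.475, 1.458 and 1.496 in I-TEL.1, I-TEL.2, J.1 and J.2. In the distal segment it was 1.42 in F.2 and 1.45, 1.41, 1.43 and 1.44 in I-TEL.1, I-TEL.2, J.1 and J.2, with the 15 others between 0.952 and 1.04. The 129 share of the distal segment was 34.4% in F.2, 66.9% to 67.6% in I-TEL and J, and 50.4% to 51.6% in the 15 others.

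**Figure D2:**
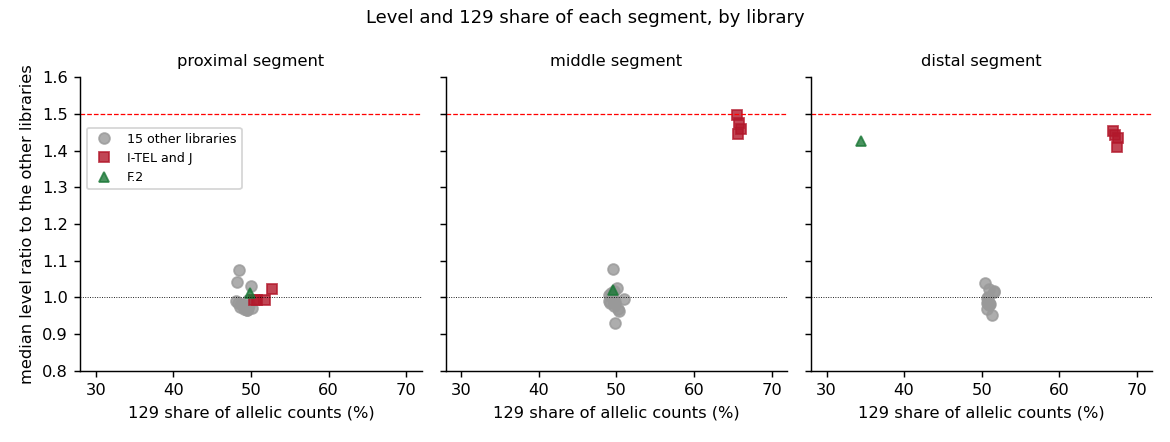
Each point is 1 library, with its 129 share in percent on the x axis and the median level ratio of the segment's members to the other libraries on the y axis, in a panel for each segment. The dotted line is a ratio of 1 and the dashed red line 1.5. F.2 stands apart in the distal panel only and the 4 I-TEL and J libraries in the middle and distal panels, on opposite sides of the 15 others in share.

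The allelic counts also gave the level of each allele. In the distal segment the summed 129 counts of I-TEL and J were 1.86 to 1.89 times those of the other libraries, and their Cast counts 0.929 to 0.972 times. In F.2 it was the Cast counts that were at 1.92 times and the 129 counts at 0.970 times. The 15 others ranged from 0.952 to 1.05 for 129 and from 0.937 to 1.05 for Cast, so the 129 counts of F.2 lay inside that range, as did the Cast counts of I-TEL.1 and J.2, whereas the Cast counts of I-TEL.2 (0.933) and J.1 (0.929) lay just under it. In the middle segment the 129 counts of I-TEL and J were at 1.83 to 1.90 times and the Cast counts at 0.930 to 0.979 times. In the proximal segment I-TEL.2 had 1.14 times the 129 counts, above the 0.963 to 1.05 of the 15 libraries, and the other 3 libraries of I-TEL and J had 1.00 to 1.03 times.

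**Figure D3:**
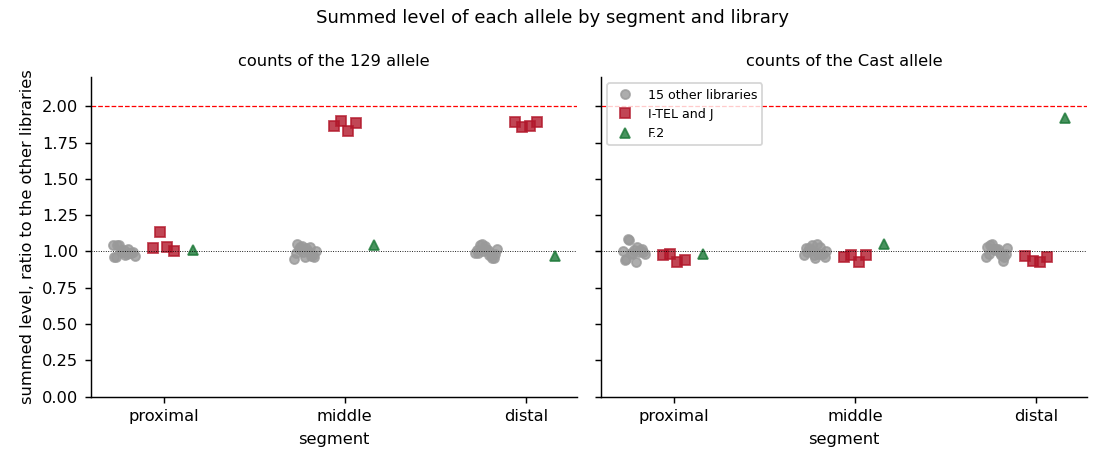
The y axis gives the summed level of 129 counts (left) or Cast counts (right) of a segment's members in 1 library, as a ratio to the mean of the other libraries, and the x axis the segment. In the distal segment the 129 counts are near 1.9 in I-TEL and J and the Cast counts at 1.92 in F.2, while the other allele stays near 1.

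Other autosomes were looked at in the same way. In 380 pairs of an autosome and a library, 11 stood apart, by over 4 percentage points in 129 share or by a median level over 10% lower or 12% higher, and 5 of these were chromosome 8. On chromosome 12 the 129 share was 30.3% to 31.7% in I-TEL and J and 64.9% to 65.8% in the other 16 libraries. Deletion I.1, one of the 14, stood apart on chromosomes 1 and 14, and leaving it out gave a median ratio of the 5 over the others of 1.390 over all members, against 1.391 with it. The summed TPM of 8 embryonic stem cell markers was 8991 to 9898 in I-TEL and J, 11910 in F.2 and 10980 to 15390 in the 14 libraries, so I-TEL and J were below all others. The sum of 6 primitive endoderm markers was 23.2 to 26.0 in I-TEL and J, 14.6 in F.2 and 11.9 to 24.0 in the 14 libraries, and that of 10 fibroblast feeder markers was 152 to 283, 103 and 73.5 to 256, with no marker at 0 in all 5 libraries. Their part in the gene ratios below was not tested, and in bulk RNA fewer cells of a type and less RNA per cell cannot be told apart.

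Per gene, the dose was read from 2 comparisons that share no library: F.2 over F.1, which has no replicate, and the mean of the 4 I-TEL and J libraries over the mean of the 14. Levels are normalised CPM (counts divided by depth), scaled on the expressed autosomal genes outside chromosome 8. A gene was counted as below the dose where its level was less than 25% higher. It was counted as following the dose from 25% to 75% higher, and as above it beyond 75%. These limits were the same for every gene, whatever its usual 129 share (90.9% in Triml1 and 30.9% in Tpm4 in the 14 libraries). The classes therefore do not separate buffering from an unequal use of the alleles. With both comparisons required, 101 members were below, 183 followed, 9 were above and 241 were mixed. Of the 9036 autosomal genes elsewhere, 75.7% were below, 1.9% were in the range of following and 0.177% were above, which is the background of these limits. Of the 101 members below in both, 66 (65.3%) lay in the proximal segment, where the level did not stand apart, 7 in the middle and 28 in the distal segment. A count of buffered genes taken over the whole chromosome was therefore mostly a count of genes outside the segments that stood apart.

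The question of following or buffering could be asked only of the 448 middle and distal members in I-TEL and J and of the 382 distal members in F.2. In I-TEL and J, 303 of the 448 (67.6%) followed, 95 (21.2%) were below and 50 (11.2%) above, with a median ratio of 1.44 and a range of 1.08 to 1.77 from the 10th to the 90th percentile. Of all other autosomal genes, 89.6% were below the lower limit in this comparison, 8.67% between the limits and 1.72% above. In 262 of the 448 members (58.5%), all 4 I-TEL and J libraries were above all 14 others, and none of the 86 proximal members was, while 3.64% of the autosomal genes elsewhere were. All 5 libraries were above all 15 in 196 of the 382 distal members, in 4 of the 66 middle and in none of the 86 proximal members, against 0.575% elsewhere. No member was lower in all 5 than in all 15. Only 24 of the 9036 autosomal genes elsewhere were, so this says little about the members.

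The spread of the members around their median was about that of any autosomal gene. The log2 ratio of I-TEL and J over 14 had a robust SD (scaled median absolute deviation) of 0.21 over the 448 members and 0.23 over the 9036 autosomal genes elsewhere. The lower limit is 0.833 of the ratio of 1.5, and 17.6% of the 448 members lay under 0.833 of their own median, as did 15.9% of the genes elsewhere of theirs. At the upper limit, 1.17 times the median, the shares were 16.3% and 17.2%. In F.2 over F.1, 16.0% of the distal members and 15.6% of the genes elsewhere were under 0.833 of the median. These shares are of counts under limits scaled to the median, and not of the 95 members below the unscaled limit.

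**Figure D4:**
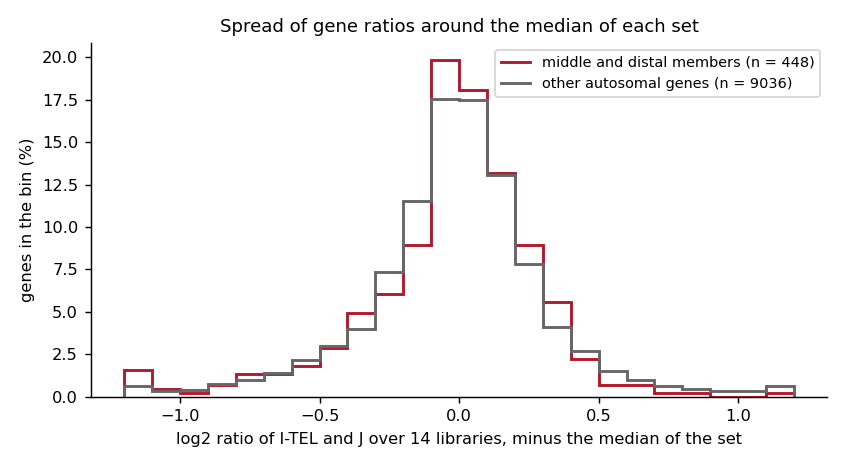
The x axis is the log2 ratio of I-TEL and J over 14 libraries minus the median of the set, in bins of 0.1 with the outermost bins holding all values beyond them, and the y axis the percent of genes in the bin. The lines of the 448 middle and distal members and of the 9036 other autosomal genes lie nearly on each other.

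The members below the dose kept the allelic shift. Of the 95 below in I-TEL and J, 66 had enough allelic counts. In all 66 the mean 129 share of I-TEL and J was higher than the mean of the 14 libraries. The differences were 4.02 to 24.0 percentage points, and 16.2 points at the median. The median shift was 16.1 points in the 214 following members and 12.4 in the 28 above. The classes were formed on the level of the same libraries, which fixes the order of their allele ratios, so these are given as a description: the median ratio of 129 counts was 1.47 and of Cast counts 0.758 in members below, against 1.94 and 0.985 in members that followed and 2.36 and 1.29 in members above. In F.2 the 44 distal members below the dose had a median shift of -17.3 points, with 129 counts at 0.871 and Cast counts at 1.70 times the other libraries, and the 174 that followed had -16.3 points, with 0.982 and 1.97. In all 44 the share was lower than the mean of the 15 libraries, though not always below each of them (Rfx1, 50.0% against 45.95% to 74.55%).

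Members below the dose also varied more among the 14 other libraries. The mean of these 14 is the denominator of the ratio that formed the classes, so this and the counts below are a description only. Their median coefficient of variation there was 21.2%, against 12.5% in the 303 following members, 16.5% in the 50 above and 16.0% in autosomal genes elsewhere. The median TPM in XX Rnf12 was 26.4 in members below, 37.6 in those following and 22.9 in those above. Of the 95 members below, 78 had no I-TEL or J library above the highest of the 14, and in 1 all 4 libraries were under all 14. These were 82.1% and 1.05% of the members below, where 80.2% and 3.18% of the autosomal genes elsewhere did the same.

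The overlap of the members below in both comparisons was partial. Of the 83 distal members below in I-TEL and J, 28 (33.7%) were below in F.2 over F.1, and these were 37.3% of the 75 distal members below there, while 19.6% of all 382 distal members were. Spearman's rho between both log ratios was 0.0031 over the 382 distal members and 0.061 over the 9036 genes elsewhere, a description across genes that share their libraries. With F.2 over the 14 libraries in place of F.1, rho was 0.244 over the distal members, but both ratios then share their denominator. F.1 is 1 library, and the over-represented allele differed between F.2 and I-TEL and J, so a low rho does not decide whether genes respond alike. When F.2 was also required to be on the same side of the limits against the 14 libraries, 22 distal members were below throughout and 3 were above throughout.

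Sequences are shown for 4 distal members on which the results below turn: a pair of metal-inducible and 1 interferon-inducible gene that were not higher in I-TEL and J, and 1 cholesterol gene that was above its dose there. That gene, Msmo1, had a ratio of 1.655 in F.2 over F.1, in the range of following. Promoters are RefSeq sequences of GRCm38.p6, 300 bases each, from 250 bases before the start site, on the strand of the gene, 5′ to 3′. Of the 534 members, 374 had a promoter in the table. In Mt1 (chr8:94178839-94179138, plus strand) and Mt2 (chr8:94172368-94172667, plus strand) the capitals mark the core of the metal response element, TGCACNC or TGCGCNC on either strand, with 3 and 4 matches. In Bst2 (chr8:71537423-71537722, minus strand) they mark GAAA, any pair of bases and GAAA again, a core of the interferon-stimulated response element, with 2 overlapping matches, and in Msmo1 (chr8:64733529-64733828, minus strand) CCAAT, with 3.
Mt1: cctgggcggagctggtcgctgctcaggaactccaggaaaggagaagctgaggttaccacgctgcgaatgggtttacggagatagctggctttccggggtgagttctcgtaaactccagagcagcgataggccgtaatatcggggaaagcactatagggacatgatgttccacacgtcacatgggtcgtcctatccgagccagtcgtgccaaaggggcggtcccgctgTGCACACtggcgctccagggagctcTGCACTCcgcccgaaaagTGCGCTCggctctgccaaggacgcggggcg
Mt2: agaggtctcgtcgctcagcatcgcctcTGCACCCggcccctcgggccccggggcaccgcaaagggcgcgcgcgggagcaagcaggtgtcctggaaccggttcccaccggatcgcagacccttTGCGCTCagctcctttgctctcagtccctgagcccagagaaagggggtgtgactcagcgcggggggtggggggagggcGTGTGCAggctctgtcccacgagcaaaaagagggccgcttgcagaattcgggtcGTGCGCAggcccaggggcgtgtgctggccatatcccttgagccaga
Bst2: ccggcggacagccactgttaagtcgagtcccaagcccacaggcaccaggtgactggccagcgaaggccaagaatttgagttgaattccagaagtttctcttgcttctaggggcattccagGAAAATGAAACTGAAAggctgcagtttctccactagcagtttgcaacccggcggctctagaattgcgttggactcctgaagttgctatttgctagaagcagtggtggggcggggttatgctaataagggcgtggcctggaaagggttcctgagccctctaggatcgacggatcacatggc
Msmo1: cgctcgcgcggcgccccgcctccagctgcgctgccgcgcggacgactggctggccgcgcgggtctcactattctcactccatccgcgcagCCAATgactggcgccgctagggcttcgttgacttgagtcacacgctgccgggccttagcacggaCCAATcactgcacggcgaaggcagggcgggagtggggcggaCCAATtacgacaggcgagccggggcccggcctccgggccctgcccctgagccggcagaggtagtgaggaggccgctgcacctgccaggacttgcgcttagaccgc

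The metal core was in 38.6% of the 456 promoters of members and in 25.7% of all 32851 promoters of the table, the interferon core in 2.41% and 3.44%, and CCAAT in 38.8% and 37.4%. A match is a match of letters and no shown site of binding.

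Of all 448 middle and distal members, 67.6% followed, 21.2% were below and 11.2% were above in I-TEL and J. The counts of each list below stand beside these shares, and no difference from them was tested. Among genes of DNA replication and repair, 18 of 21 members lay in the middle or distal segment. Of these, 15 followed, 3 were above and none was below in I-TEL and J, with a median ratio of 1.53. Mcm5, a subunit of the replicative helicase at chr8:75109569-75128439, read 640.2 to 864.7 CPM in the 14 libraries and 644.5 in F.1. It read 924.9 in F.2, 1040 and 1032 in I-TEL.1 and I-TEL.2, and 1121 and 1049 in J.1 and J.2. All 5 were above the others, the ratio was 1.51 in I-TEL and J and 1.44 in F.2 over F.1 (95% counting interval 1.388 to 1.484), and the 129 share was 68.4% to 70.0% in I-TEL and J, 36.2% in F.2 and 51.3% to 56.8% in the 15 others. Cdt1, which loads that helicase, read 468.1 to 545.6 in I-TEL and J and 549.8 in F.2, all above the 278.2 to 422.7 of the 14 libraries. Asf1b, Gins3 and Tk2 were the 3 above the dose. The 3 proximal members, Xab2, Lig4 and Polb, had a median ratio of 0.881.

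Cell division genes gave a like picture, with 12 of 13 middle and distal members following, 1 above (Anapc10), none below and a median ratio of 1.478. E2f4, a pocket-protein-binding transcription factor of the cell cycle, read 319.8, 328.4, 356.1 and 346.0 in I-TEL.1, I-TEL.2, J.1 and J.2 and 315.6 in F.2, above the 185.2 to 261.2 of the 14. Its proximal dimer partner Tfdp1 read 122.8 to 160.2 in I-TEL and J and 118.8 in F.2, where the 14 libraries read 84.2 to 144.6, and its 129 share moved by -0.13 points. In the 6 proximal members of the list the median ratio was 1.09.

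Of the chromatin and transcription genes, 16 of 23 middle and distal members followed, near the share of all 448. In this list 6 were below (Nr2f6, Rfx1, Sall1, Gse1, Banp and Irf2bp2) and Sin3b was above, with a median of 1.42. Nacc1, a BTB-domain repressor, read 450.1 to 483.6 in I-TEL and J and 452.7 in F.2, above the 247.1 to 354.8 of the 14. Sap30, a Sin3 complex subunit in the middle segment, read 115.9 to 122.4 in I-TEL and J, above the 77.3 to 112.5 of the 14, and 87.5 in F.2, inside them. All 5 middle and distal members of the general transcription machinery followed in I-TEL and J (median 1.49). Gtf2e2, a subunit of TFIIE in the middle segment, had ratios of 1.49 in I-TEL and J and 0.881 in F.2 over F.1, and Med26, a distal Mediator subunit, had 1.43 and 1.51.

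RNA processing and decay genes followed in 14 of 17 cases in I-TEL and J, with Upf1 below and Txnl4b and Ddx19a above (median 1.49). Lsm4, part of the ring on U6 and decaying mRNA, read 207.8 to 250.4 in I-TEL and J and 256.0 in F.2, above the 149.7 to 186.1 of the 14. Ddx39, an RNA helicase of mRNA export, had a ratio of 1.555 in I-TEL and J and 1.119 in F.2 over F.1. All 18 middle and distal members of translation and ribosome assembly followed in I-TEL and J (median 1.51), and in F.2 over F.1 11 of 16 distal ones did, with Ddx49, Trmt1, Ddx28, Utp4 and Nob1 below and a median of 1.28. Eif4ebp1 read 483.9 to 548.7 in I-TEL and J, above the 325.4 to 467.7 of the 14, and 384.4 in F.2, against 491.4 in F.1. Mrpl34, a mitochondrial ribosome protein gene, had ratios of 1.32 and 1.32.

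Proteasome and ubiquitin genes followed in 9 of 13 cases, near the 67.6% of all 448 members. Fbxo8 was above and Ufsp2, Psmb10 and Rnf166 were below (median 1.46). Psmd7, a lid subunit of the proteasome, read 376.8 to 439.7 in I-TEL and J and 406.2 in F.2, above the 241.7 to 311.6 of the 14. Psmb10, the inducible subunit that replaces a constitutive one in the immunoproteasome, read 29.7, 27.4, 32.1 and 33.6 in I-TEL.1, I-TEL.2, J.1 and J.2, with J.2 just inside and the other 3 under the 32.8 to 79.3 of the 14, and 51.5 in F.2 against 55.1 in F.1. Its ratios were 0.607 and 0.934, where those of Psmd7 were 1.475 and 1.308, although its 129 share moved as that of its neighbours did, to 59.1% to 70.3% in I-TEL and J and 26.5% in F.2 from 34.9% to 61.1% in the 15 others. Dcaf15, a substrate receptor of ubiquitin ligases, had ratios of 1.45 and 1.66.

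Chaperones and protein entry genes followed in 10 of 12 cases, with Clgn and Hsbp1 below (median 1.52). Calr, the calcium-binding chaperone of the endoplasmic reticulum, read 1174 to 1259 in I-TEL and J and 1255 in F.2, above the 745.5 to 1134 of the 14, and Fkbp8, an anti-apoptotic immunophilin, had ratios of 1.47 and 1.37. Vesicle traffic genes followed in 11 of 16 cases, near the share of all 448 members. Mvb12a and Trappc2l were below and Rab8a, Ap1m1 and Cog8 above (median 1.52). Cope, of the COPI coat, had ratios of 1.40 in I-TEL and J and 1.58 in F.2 over F.1, and Use1, a SNARE of the Golgi-to-endoplasmic-reticulum route, 1.351 and 1.284. Ap1m1, a clathrin adaptor subunit, read 96.5 to 102 in I-TEL and J and 90.5 in F.2, all above the 46.0 to 65.9 of the 14.

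Of the metabolic enzymes and carriers, 9 of 18 middle and distal members followed, where 67.6% of all 448 did, with 6 below (Got1l1, Asah1, Acsl1, Isyna1, Pgls and Aprt) and 3 above (Slc25a4, Msmo1 and Cyb5b), and a median of 1.37, a description with no test of the difference. Slc25a4, the heart and muscle ADP/ATP carrier in the middle segment, read 457.9, 457.7, 588.6 and 579.9 in I-TEL.1, I-TEL.2, J.1 and J.2, against 230.5 to 352.2 in the 14 and 289.2 in F.2. Aprt, which salvages adenine, read 244.5 to 292.9 in I-TEL and J, inside the 211.8 to 319.2 of the 14, and had ratios of 1.06 there and 1.29 in F.2 over F.1. Msmo1 read 191.2 to 221.9 in I-TEL and J and 242.4 in F.2, where F.1 read 146.5 and the 14 libraries 87.8 to 123.

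Signalling genes followed in 5 of 9 cases, with 2 below, Plcg2 among them, and Jak3 and Gab1 above (median 1.43). Prkaca, the catalytic subunit of protein kinase A, had ratios of 1.63 in I-TEL and J and 1.58 in F.2 over F.1, and Ppp2cb, a catalytic subunit of protein phosphatase 2A in the middle segment, had 1.45 and 0.950. Plcg2, a phospholipase, read 48.5, 49.9, 55.0 and 54.4 in I-TEL.1, I-TEL.2, J.1 and J.2, at the low end of the 44.5 to 104 of the 14, and 93.9 in F.2 against 96.2 in F.1. Gab1, a docking protein of receptor tyrosine kinases, went the other way, with 319.5, 282.8, 236.0 and 212.1 in the same 4 libraries, all above the 66.3 to 203 of the 14, and 110 in F.2 against 176.2 in F.1. Its ratios were 2.13 and 0.622 (counting interval 0.574 to 0.673), and the level of F.2 lay inside the range of the 14. Gab1 was read mostly from 129 (81.3% in the 14), the allele over-represented in I-TEL and J and not in F.2. In F.2 its 129 counts were 0.656 and its Cast counts 2.16 times those of the 15 libraries. In I-TEL and J they were 2.28 and 1.70 times those of the 14. The part of this allelic bias in its ratios was not tested.

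Adhesion and cytoskeleton genes had the lowest median of the 13 lists, 1.34, with 5 of 10 middle and distal members below (Palld, Homer3, Tpm4, Cdh1 and Cotl1), 3 following and 2 above (Cdh11 and Pard6a). Cdh1, the E-cadherin gene, read 732.4, 752.7, 651.5 and 652.9 in I-TEL.1, I-TEL.2, J.1 and J.2 and 713.2 in F.2, with the 14 libraries at 418.2 to 716.8 and F.1 at 584.1, so that both I-TEL libraries were above the 14 and the others inside. Its ratios were 1.194 and 1.22 (counting interval 1.18 to 1.27), with 129 counts at 1.646 and Cast counts at 0.832 in I-TEL and J. Tpm4, a tropomyosin, had ratios of 1.18 and 1.22. The list was chosen with earlier results of these data known, and with 10 members its median is a description only.

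Stress-inducible genes followed in 9 of 13 cases, near the share of all 448 members, with Ankrd37, Mt2 and Mt1 below and Ier2 above (median 1.46). In only 3 of the 13 were all 4 I-TEL and J libraries above all 14, where 58.5% of the 448 were. Most of these members thus overlapped the other libraries in level, also where their mean followed. Mt2, which binds zinc and cadmium and whose promoter is shown, was the most abundant listed member at 1188 TPM in XX Rnf12. It read 661.4, 513.5, 478.6 and 550.9 in I-TEL.1, I-TEL.2, J.1 and J.2, amid 257.9 to 920.7 in the 14, a ratio of 0.999, and 707.9 in F.2 against 515.9 in F.1, a ratio of 1.37. Mt1 had 1.01 and 1.30. The 14 libraries ranged from 206.9 to 965.2 in Mt1, a range within which a level 1.5 times higher could not be told apart. Ier2, an immediate early gene, read 361.7 to 397.8 in I-TEL and J and 380.5 in F.2, above the 151.8 to 267.2 of the 14, ratios of 1.84 and 1.63.

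Among members of at least 20 TPM, the 8 lowest ratios of the 5 over the 15 libraries were those of Acta1 (0.505), Grtp1 (0.643), Psmb10 (0.684), Plcg2 (0.747), Fcor (0.760), Ankrd10 (0.778), Cyba (0.793) and Rasd2 (0.804). Grtp1, Fcor and Ankrd10 were proximal, outside the segments that stood apart. Ankrd10 read 203.1 to 254.7 in I-TEL and J and 242.6 in F.2, where the 14 libraries read 236.9 to 340.1, and Grtp1 read 32.5, 22.5, 21.7 and 21.7 in I-TEL.1, I-TEL.2, J.1 and J.2, all below the 33.6 to 54.7 of the 14. Acta1, skeletal actin, rested on 0.741 to 2.10 CPM in the 5 libraries. Cyba, a subunit of the NADPH oxidase, and Rasd2, a small GTPase, were below in I-TEL and J (0.689 and 0.648) and at 1.84 and 2.08 in F.2 over F.1. These last values rest on the low level of F.1 (22.3 and 30.1), since against the 14 libraries F.2 had ratios of 1.101 and 1.329. Bst2, the antiviral protein tetherin whose promoter is shown, read 28.7 to 39.3 in I-TEL and J and 45.3 in F.2, inside the 25.5 to 68.8 of the 14, with ratios of 0.808 and 1.15.

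The 8 highest ratios of the 5 over the 15 were those of Triml1 (2.03), Apela (2.01), Msmo1 (1.91), Slc38a7 (1.87), Ciapin1 (1.85), Nae1 (1.83), Klhdc4 (1.83) and Ap1m1 (1.83), and none was proximal. Triml1, of the tripartite motif family, lies in the middle segment and read 109.8, 112.5, 90.3 and 99.2 in I-TEL.1, I-TEL.2, J.1 and J.2, all above the 36.6 to 55.8 of the 14, while F.2 read 46.7, inside them. It was read mostly from 129 in every library (82.4% to 98.7% in the 15 others), and in I-TEL and J its ratio was 2.26. Apela, a peptide ligand of the apelin receptor that pluripotent cells make, read 31.5 to 51.4 in I-TEL and J, above the 10.8 to 28.4 of the 14, and 27.9 in F.2, inside them. Nae1, a subunit of the NEDD8-activating enzyme, was above the dose in both comparisons, with 106 to 128 in I-TEL and J and 115 in F.2 against 55.5 to 81.8 in the 14, and ratios of 1.83 and 1.90. Ciapin1, an iron-sulfur cluster assembly factor, read 306.8 to 382.5 in I-TEL and J and 311.6 in F.2, above the 157.6 to 201.4 of the 14. Around the lower limit, by the ratio of the 5 over the 15, B3gnt3 (1.245) was the last member under it and Arhgap10 (1.251) and Tom1 (1.253) were the first over it.

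**Figure D5:**
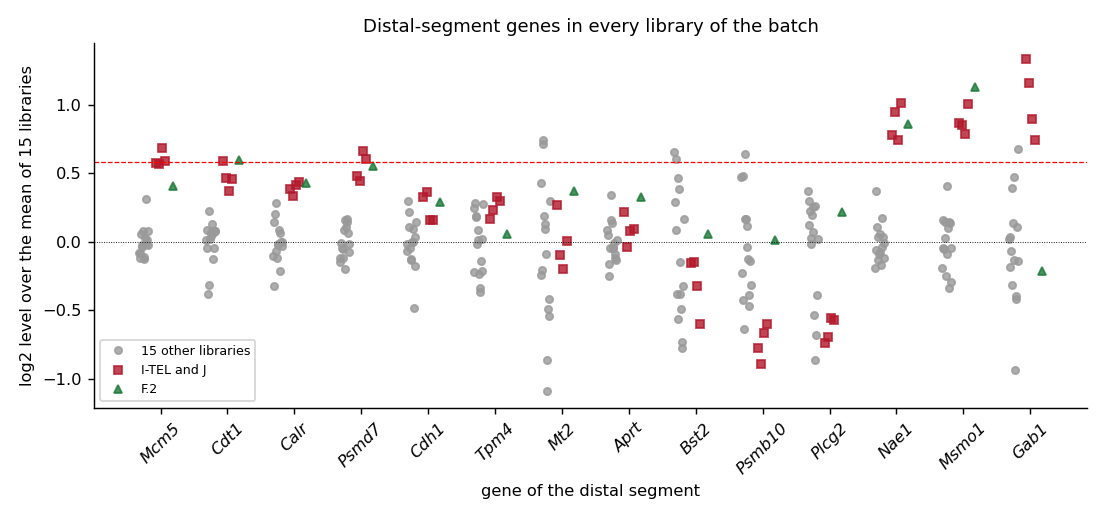
The y axis is the log2 level of a gene in 1 library over the mean of the 15 other libraries (the dotted line is 0 and the dashed red line a ratio of 1.5), for 14 distal genes on the x axis. Mcm5, Cdt1, Calr and Psmd7 sit above all of the 15 in all 5 libraries, Psmb10 and Plcg2 sit low in I-TEL and J, and Gab1 is high in I-TEL and J and not in F.2.

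The members with the largest allelic shift lay in the distal segment. Among members with a mean of at least 100 allelic counts, the 129 share moved furthest up in I-TEL and J in Kars (21.8 points), Otud4 (21.6) and Abcb10 (21.1), a lysyl-tRNA synthetase, a deubiquitinase and a mitochondrial transporter, and furthest down in Fnta (-7.04), Vdac3 (-4.82) and Elavl1 (-4.74), which were all proximal. In F.2 it moved furthest down in Egln1 (-29.0), Coq9 (-27.1) and Gab1 (-25.4), all distal, and furthest up in Vdac3 (7.16), Triml1 (6.75) and Tacc1 (5.04), of the proximal and middle segments. Egln1, the oxygen-sensing prolyl hydroxylase, read 21.1% 129 in F.2, 61.6% to 66.0% in I-TEL and J and 39.3% to 57.8% in the 15 others.

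A few members near or inside the borders, chosen after their values were seen, had values unlike the median of the segment they lie in. Plekha2, an adaptor protein gene of the proximal segment, read 123.5 to 168.8 in I-TEL and J against 76.3 to 123.9 in the 14, with J.1 inside that range, with ratios above 1 for both alleles (1.64 for 129 and 1.52 for Cast) and a share that moved by 1.87 points. Dusp4, a phosphatase of MAP kinases, and Saraf, which limits store-operated calcium entry, both middle genes, had ratios of 0.976 and 1.08 in I-TEL and J, although their 129 share went to 59.6% to 65.4% and 67.8% to 72.8% from 36.0% to 49.4% and 41.5% to 60.2% in the 15 others. Their allele ratios were 1.42 and 1.46 for 129 counts and 0.638 and 0.670 for Cast counts. The 14 libraries ranged from 43.6 to 176.3 CPM in Dusp4 and from 37.9 to 68.3 in Saraf, so that in Dusp4 a level 1.5 times higher could not be told apart. Counts of Sap18b, Gm10073, Gm10131 and 2610044O15Rik8 are uncertain, since close copies of these genes can share reads.

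I-TEL and J could be compared by a test that the rule did not use. In edgeR's quasi-likelihood test over 11703 expressed genes in 18 libraries, 0.649% of all genes differed between I-TEL and J at an adjusted p under 0.05, and 1 of the 534 members did. It was Stxbp2, a partner of syntaxins in secretion in the proximal segment, which read 89.3 and 87.9 in I-TEL and 59.3 and 62.4 in J, a log2 difference of 0.55 ± 0.10 (SE, edgeR adjusted p = 0.0116). Leaving out any 1 of the 4 libraries ended this call, and DESeq2 called 3 members (0.562%, against 0.778% of all genes). At an unadjusted p under 0.05, 50 members (9.36%) differed, near the 8.61% of all genes, and the median difference over the members was 0.01 on the log2 scale. The 2 libraries of a line are separate clones, and the p-values measure the spread between such clones.

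No library outside this batch had a like shift. The 6 libraries of XX Wildtype, XX Rnf12 and Deletion E form another batch. Their 129 share of the members was 50.2% to 53.1% and their median ratio to XX Rnf12 0.992 to 1.02. The 4 XO libraries carry 1 X chromosome and were sequenced as single reads in a further batch. Their share was 50.2% to 50.6% and their ratio 1.02 to 1.05, and batch and genotype cannot be told apart in that ratio. By segment the ratios of the XO X129OCast libraries were 0.954 and 0.922 (proximal), 0.944 and 0.896 (middle) and 1.091 and 1.094 (distal). Those of XO XCastO129 were 1.004 and 1.004, 0.979 and 0.919, and 1.040 and 1.037. The segment shares of the XO libraries were 49.7% to 51.1%. The same limit holds for these ratios. Between Deletion E and XX Rnf12, edgeR called 0 of the 534 members at an adjusted p under 0.05 (0.145% of all genes), with 44 members (8.24%) at an unadjusted p under 0.05 against 10.9% of all genes, and DESeq2 called 7 (1.31%) against 1.73% of all genes. Both shares were below those of all genes.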

How the data were processed

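The authors aligned reads with HISAT2 to mm10 with strain variants masked, assigned them to alleles with SNPsplit and counted them per gene with featureCounts on the reverse strand, and they deposited raw counts per gene of all, 129 and Cast reads; the labels name HISAT2 2.2.1, Trim Galore 0.6.7, SAMtools 1.10 and HTSeq 0.12.4. The masked genome limits but may not remove mapping bias, and allelic counts cover only reads over variants. Of 55421 gene IDs, 55240 matched the annotation (GENCODE M21), and the other 181 held at most 0.00401% of counts and were left out.

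Levels were counts divided by TMM-scaled totals of expressed autosomal genes outside chromosome 8 (edgeR 4.0.16, R 4.3.3). Differences of I-TEL from J were fitted over 18 libraries and of Deletion E from XX Rnf12 over 6, with edgeR's quasi-likelihood test and Benjamini-Hochberg adjustment, with DESeq2 1.42.0 as alternative. Only the edgeR fit of I-TEL against J was run on simulated counts, with the same dispersion for every gene. Same-numbered libraries were not paired in the main fits. The correlation of their deviations was -0.213 for I-TEL and J, -0.357 for Deletion E and XX Rnf12 and -0.25 for Deletion E and XX Wildtype. For XX Rnf12 and XX Wildtype, both in the fit of 6 libraries, it was 0.784, so same-numbered libraries of these groups deviated together. Intervals of ratios and shares cover counting error only.

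Named were the 8 highest and 8 lowest ratios of the 5 over the 15 libraries at 20 TPM or more, the 2 most abundant members of each of 13 lists, the 3 largest and smallest changes of 129 share at 100 or more allelic counts, and genes called between I-TEL and J. Other genes named, such as Bst2, Mt1 and those beside a border, were chosen after their values were seen. Members and lists were chosen with earlier results of these data known. Some items are not reported here.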

Additional observations from a re-analysis of the deposited data

Results flagged for a closer look

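The 129 share of the distal segment went opposite ways in lines of the same batch. I-TEL and J were 16.57 percentage points above F.1 on average, all 4 libraries above, and F.2 was 16.28 points below it (-16.28). The difference was not tested.

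Outside chromosome 8, the mean 129 share of chromosome 12 genes was 30.99% in I-TEL and J, against 64.94% to 65.79% in the other 16 libraries. In Deletion I.1 the 129 share was 67.93% on chromosome 1 and 66.44% on chromosome 14, where the other 19 libraries ranged from 50.7% to 52.53% and from 46.86% to 52.02%.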

How the results depend on the processing

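The median level of all members in the 5 libraries stayed between 1.363 and 1.418 over 16 alternatives, and that of the segments higher in I-TEL and J, chosen after seeing the data as were all values by segment, between 1.424 and 1.46 over 12. The distal level of F.2 over F.1 was 1.485 by TPM, 1.409 at a mean TPM over 20 and 1.426 against the 14 libraries. The 15.33 and -13.07 points of 129 share at 100 allelic counts or more stand beside 14.93 and -12.77 for I-TEL and J minus the 14 and F.2 minus F.1, and the median of the genes' shares gave -13.92 for the latter. The count of members below in I-TEL and J (95) was 147 at a mean TPM over 1, 57 at over 20 and 143 at a limit 35% over no change. The class above in both comparisons (9) was 18 at a mean TPM over 1, 2 at over 20 and 32 with limits scaled to the medians. The TPM limits also change how many members are counted. The 57 below were of 304 middle and distal members, where the 95 were of 448. Of all 534 members, 357 had at least 20 TPM. Limits of 35% and 65% left 83 following and 21 above, and the 5 against the 15 libraries gave 173 below, 328 following and 33 above.

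For I-TEL against J (1 call), DESeq2 gave 3, no filter on TPM 8 and I-TEL and J alone 2, which were 0.562%, 1.5% and 0.375% of members where 0.778%, 0.904% and 0.735% of all genes were called, and leaving out any 1 library 0 to 0. The replicate block kept 1 call (adjusted p = 0.0141, edgeR) for I-TEL against J and 0 for Deletion E against XX Rnf12, where DESeq2 gave 7. Blocks with crossed replicate numbers were added after seeing the data. For I-TEL against J the crossed block was fitted on those 4 libraries alone and gave 14 (2.62% of members, 3.14% of all genes), so crossing and the smaller fit cannot be told apart, and for Deletion E against XX Rnf12 it gave 1. F.2 over F.1 has no replicate, and the share of F.2 minus F.1 could not be given without either library. Low members are limited by counts: Acta1 and Fcor rest on few reads.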
